A study of Mus musculus with 4514 samples.

Results

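Diploid (2N) hepatocyte nuclei from mouse liver at postnatal day 60 (P60) were set against diploid hepatocyte nuclei at P18. The nuclei were taken by the age and the 2N ploidy in their labels, which gave 443 nuclei, 340 at P60 and the others at P18, of the 1113 nuclei in the deposited nuclear table and of the 4514 samples in the series. All came from Alb-Cre; Rosa-tdTomato mice, in which the albumin promoter drives Cre and so marks hepatocytes with a red fluorescent protein. No treatment is given for any of them, and the labels state neither sex nor animal. Hepatocytes were sorted by fluorescence, their membranes were broken in a homogenizer, and single nuclei stained with the DNA dye DAPI were sorted into lysis buffer for well-based mSTRT-seq, a tag-counting method for single cells. Because no label ties a nucleus to an animal, each group is 1 pool: nuclei are not replicates, no test between ages can be made, and no p-value is given.

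The same change was read in unsorted whole hepatocytes at P60 (58 cells, a subset taken by label number) and P18, with cells labelled 2N at P60 as a further P60 set. Other nuclei served as yardsticks: 57 labelled 1x2N and 66 labelled 2x2N at P60, which the labels do not explain, and 4N nuclei at P60 and P18 (46 at P18). Diploid nuclei at P0 and P9 (75 at P9) and whole cells at P18, P24, P30 and P60 gave the course over age, with 955 nuclei and 695 cells in all groups used. All of these are from the same mouse line, and each is again 1 pool.

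As background, the mouse liver changes its lipid programme around weaning, when fat-rich milk gives way to a diet rich in carbohydrate. Fatty acid oxidation and ketone production serve the suckling liver, and fatty acid synthesis follows the switch of diet. Livers of males and females then diverge at puberty, when growth hormone is released in pulses in males and more steadily in females. The hormone acts through its receptor and the transcription factor STAT5B, and CUX2 is a repressor of male-biased genes in the female liver. A nucleus holds newly made transcripts, while a whole cell also holds the mature RNA that has built up in the cytoplasm.

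Totals ran between 3608 and 665985 counts per nucleus at P60 (median 102708) and between 5298 and 737398 at P18 (median 95791), with medians of 4386 and 3843 genes detected. Levels are CPM, the gene counts of a nucleus scaled to a common total without the ERCC spike-in RNAs, averaged over the pool. A fold is the ratio of these means after adding 1 CPM to each, on the log2 scale. A gene counted as measured when the mean of the 2 pools reached 10 CPM and the mean share of nuclei with a count reached 10%, and as higher or lower at P60 when it differed at least 2-fold. A gene that is high in only 1 pool can pass this filter and must then differ, so the counts over measured members of a list describe the data and support nothing by themselves.

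The nuclei were divided into 2 technical sets by their spike-in RNAs. The nuclei numbered 1 to 26 in the P60 labels and 1 to 39 in the P18 labels held no spike-in count, while the others did, 64 of them at P18. Mean albumin (Alb) was 19020 CPM at P60 and 11740 CPM at P18 in the nuclei without spike-in counts, against 6365 CPM at P60 and 9575 CPM at P18 in the nuclei with them. Folds within each set are therefore given for a number of the genes where they differ, and a fold over all nuclei mixes both sets.

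The hepatocyte label was checked against marker genes. Every nucleus had Alb counts, at 1487 to 55960 CPM at P60 and 1712 to 86740 CPM at P18. None of the 11 measured hepatocyte markers of 12 listed differed 2-fold, beside 6.23% of all measured genes higher and 6.64% lower. That count is near the shares of all genes and does not bear on the label. Markers of other cells were low: over 13 endothelial genes the summed level was 0 to 6002 CPM at P60 (median 0) and 0 to 578 CPM at P18 (median 24.7), and 2 of the 13 had no count at either age. The 12 Kupffer cell and macrophage genes of the table had a median sum of 0 CPM at P60 and 9.49 CPM at P18, and none was measured. Both sums averaged more in P60 nuclei without spike-in counts (708.5 CPM endothelial and 210.9 CPM Kupffer) than in P60 nuclei with them (13.63 and 12.04 CPM), and their part in the results was not tested. Counts of a Y-linked gene were found in P60 and P18 nuclei, and Xist, the RNA of the inactive X chromosome, had no count in either pool. The count of 0 allows a share of nuclei with a count of up to 0.882% at P60 and 2.91% at P18.

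At P60, 501 of 8045 measured genes were at least 2-fold higher (6.23%) and 534 were at least 2-fold lower (6.64%) than at P18. These counts have to be read against pools of the same age. The 1x2N nuclei at P60 differed from the 2N nuclei at P60 at least 2-fold upward in 4.88% and downward in 9.77% of genes, and the 2x2N nuclei in 4.3% and 8.87%. Counting both directions, genes past 2-fold were thus no more frequent between ages than between pools at P60. The higher genes alone were more frequent between ages, and the lower genes were less frequent. The P60 pools also differed in size and in spike-in counts. The median spike-in share was 11.95% in the 57 1x2N nuclei, 10.65% in the 66 2x2N nuclei and 0.949% in the 340 2N nuclei. The part of these differences in the counts was not tested. Folds of at least 16 were more frequent between ages, with 66 genes (0.82%), than between P60 pools, with 18 genes (0.229%) for the 1x2N nuclei and 17 genes (0.216%) for the 2x2N nuclei. In 4N nuclei, a separate pair of pools, 7.07% of genes were higher and 6.54% lower at P60. Of 471 genes higher in diploid nuclei and measured in 4N nuclei, 47.1% were higher in 4N nuclei too and 6 genes were lower, against 6.89% higher among all genes measured in both. Of 462 lower genes, 45.2% were lower in 4N nuclei and 6 genes were higher, against 5.73% lower among all.

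Many of the highest and lowest folds were of genes known to differ between male and female liver. The highest fold of the genes named by rule was that of C6 (chr15:4727175-4814967, GRCm38), which encodes a component of the complement pore and is male-biased in mouse liver. C6 ran from 0 through a median of 696 to 6565 CPM in P60 nuclei, against 0 through a median of 0 to 74.3 CPM in P18 nuclei. The P60 lower quartile of 281.5 CPM lay above the highest P18 nucleus. A count was found in 98.5% of P60 nuclei (exact Clopper-Pearson 95% interval 96.6 to 99.5%) and in 20.4% of P18 nuclei (13.1 to 29.5%). Means were 1049 CPM at P60 and 2.82 CPM at P18, a log2 fold of 8.10, with 6.13 in nuclei without and 9.59 in nuclei with spike-in counts. These intervals, and those below on shares of nuclei, treat nuclei as independent draws and do not cover the spread between animals.

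Cyp7b1 (chr3:18071950-18243338), an oxysterol hydroxylase of the bile acid and steroid pathways, averaged 2530 CPM at P60 and 42.1 CPM at P18, with medians over nuclei of 1189 and 0 CPM. Its log2 fold was 5.88 in all nuclei, but 2.74 in nuclei without spike-in counts (454.8 CPM at P60, 67.25 CPM at P18) and 6.61 in those with them (2702 CPM at P60, 26.74 CPM at P18). Both sets gave the same direction and differ in size. Cyp4a12a, a fatty acid and arachidonic acid hydroxylase of the male liver, had counts in 67.4% of P60 nuclei and in 4.85% of P18 nuclei, where they came to 5 counts in all. Hsd3b5, a steroid-reducing enzyme, averaged 166.6 CPM at P60 and 2.22 CPM at P18, a log2 fold of 5.70. Cyp4a12a and its neighbour Cyp4a12b are near-identical, and how the counting assigned reads that fit both is not given in the sources used here.

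Of 24 male-biased liver genes listed, 22 were in the table and 18 were measured, and each of the 18 was at least 2-fold higher at P60, against 6.23% of all measured genes. The list had a median log2 fold of 3.92, and over all measured genes the median was -0.05. The lowest folds in the list were those of the complement genes C8a (1.15) and C8b (1.49). Slco1a1, an organic anion importer, averaged 472 CPM at P60 and 154.8 CPM at P18. In 17 of the 18 the difference was at least 2-fold in both spike-in sets. The exception was Selenbp2, a selenium-binding protein, with log2 folds of 0.61 without and 3.36 with spike-in counts.

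The major urinary proteins are pheromone carriers that the male liver secretes in large amounts. Mup3 (chr4:62083476-62087342) had a count in all 340 P60 nuclei, at 30.1 to 27600 CPM with a median of 1279, and in 71.8% of P18 nuclei, at 0 to 1285 CPM with a median of 93.95. Means of 2098 CPM at P60 and 133.4 CPM at P18 gave a log2 fold of 3.97, with 5.90 in nuclei without and 3.64 in nuclei with spike-in counts. The ranges overlap, but the P60 lower quartile of 713.7 CPM lay above the P18 upper quartile of 154.4 CPM. All 12 measured Mup genes of 22 listed were higher, beside 6.23% of all measured genes. Their median log2 fold was 4.61, and log2 folds lay between 2.26 (Mup2) and 5.25 (Mup17). Members such as Mup16, at 32.25 CPM at P60 and 0.352 CPM at P18, passed the filter only through P60, so this count supports nothing by itself. Mup3 and Mup20 are also on the male-biased list. The family sum averaged 4478 CPM at P60 and 217.5 CPM at P18. It was far higher in P60 nuclei without spike-in counts, at 23560 CPM, than in P60 nuclei with them, at 2897 CPM. At P18 the sum was 305.4 CPM in nuclei without spike-in counts and lower still in those with them. The Mup genes are near-identical copies, so values of single members are uncertain.

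**Figure D1:**
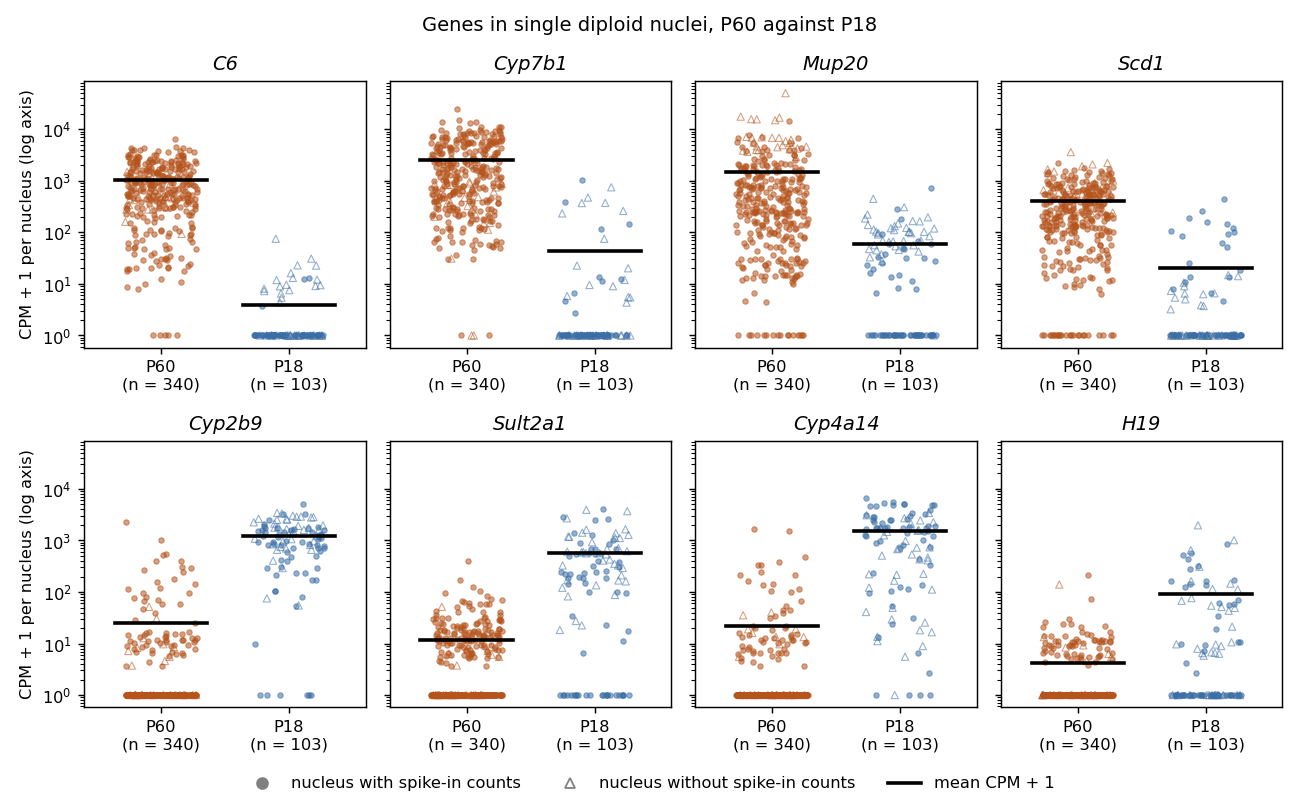
Level of 8 genes in each diploid nucleus at P60 (left in each panel) and P18, as CPM + 1 on a log axis; filled circles are nuclei with spike-in counts, open triangles nuclei without, and bars are means of CPM with 1 added. C6, Cyp7b1, Mup20 and Scd1 lie higher at P60 and Cyp2b9, Sult2a1, Cyp4a14 and H19 lie lower, with means of 24.2 CPM at P60 and 1241 CPM at P18 for Cyp2b9.

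Genes known to be female-biased in adult mouse liver were the mirror of this. Cyp2b9 (chr7:26173411-26210661), a steroid-metabolising cytochrome P450, had a count in 80 of 340 P60 nuclei (23.5%, interval 19.1 to 28.4%) and in 94.2% of P18 nuclei (87.8 to 97.8%). Its values ran from 0 through a median of 0 to 2297 CPM at P60 and from 0 through a median of 1067 to 5016 CPM at P18. The log2 fold was -5.62, with -8.10 in nuclei without and -5.20 in nuclei with spike-in counts. Most P60 nuclei thus had none, and a few had as much as P18 nuclei.

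Sult2a1 (chr7:13796246-13837409), a sulfotransferase of steroids and bile acids, averaged 10.8 CPM at P60 and 569 CPM at P18, a log2 fold of -5.59, with -7.44 in nuclei without and -5.07 in nuclei with spike-in counts. It still had counts in 47.1% of P60 nuclei and in 77.7% of P18 nuclei, but at a fixed depth of 26000 counts per nucleus these shares were 17.9% and 74.1%. Its relatives Sult2a2 and Sult2a5 had log2 folds of -6.95 and -6.79. Cyp4a14, a fatty acid omega-hydroxylase, averaged 20.8 CPM at P60 and 1517 CPM at P18, a log2 fold of -6.12. The size of this fall differed between P60 pools. Cyp4a14 averaged 265.2 CPM in 1x2N and 416.2 CPM in 2x2N nuclei at P60, still below the P18 diploid nuclei. In 4N nuclei its log2 fold was -7.08, and in whole cells it was -2.09 with the unsorted P60 cells. Cells labelled 2N at P60 averaged 440.1 CPM, against 531.5 CPM in P18 cells, which is within 2-fold.

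Of 22 female-biased genes listed, all in the table, 13 were measured and 12 of these were at least 2-fold lower at P60, against 6.64% of all measured genes. The median log2 fold of the list was -5.01. In both spike-in sets, 12 were at least 2-fold lower. The exception was Rtn4, an endoplasmic reticulum protein, at 30.5 CPM at P60 and 52.8 CPM at P18. Cux2 itself averaged 11.9 CPM at P60 and 192.6 CPM at P18, and was found in 11.8% of P60 nuclei and 60.2% of P18 nuclei.

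Promoter windows of 300 bases from RefSeq (GRCm38.p6, 250 bases before to 50 after the annotated start, on the gene's strand) existed for 92 of the genes named by rule. Those of Cyp2b9 (chr7:26173159-26173458, plus strand) and Cyp2b13 (chr7:26061245-26061544, plus strand) are shown first because both genes were called lower and their windows differ at 2 of 300 positions; capitals mark the 2 positions that differ.
Cyp2b9: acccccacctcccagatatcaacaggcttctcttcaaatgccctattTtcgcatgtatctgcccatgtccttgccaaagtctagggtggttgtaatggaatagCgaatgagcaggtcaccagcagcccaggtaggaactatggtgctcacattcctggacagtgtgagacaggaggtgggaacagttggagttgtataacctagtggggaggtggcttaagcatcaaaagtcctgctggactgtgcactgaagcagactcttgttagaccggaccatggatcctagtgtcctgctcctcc
Cyp2b13: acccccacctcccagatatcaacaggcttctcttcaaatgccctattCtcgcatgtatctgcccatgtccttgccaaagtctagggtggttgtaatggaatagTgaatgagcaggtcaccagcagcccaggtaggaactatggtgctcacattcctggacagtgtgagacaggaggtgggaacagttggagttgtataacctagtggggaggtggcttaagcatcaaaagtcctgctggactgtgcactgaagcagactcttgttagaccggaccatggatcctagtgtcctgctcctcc
Of the 300 bases, 250 lie before the start, and how alike the transcripts of the pair are was not measured. How the counting assigned reads that fit both genes is not given in the sources used here. The 0.187 CPM at P60 and 70.4 CPM at P18 of Cyp2b13 rest on 8 and 1183 counts. The next windows show one gene that was lower, Cyp2a22 (chr7:26939337-26939636, minus strand), and one that was higher, Mup11 (chr4:60662346-60662645, minus strand). Capitals mark a TATAAA match that begins at -28 from the start in Cyp2a22 and a reverse-strand CCAAT match that begins at -224 in Mup11.
Cyp2a22: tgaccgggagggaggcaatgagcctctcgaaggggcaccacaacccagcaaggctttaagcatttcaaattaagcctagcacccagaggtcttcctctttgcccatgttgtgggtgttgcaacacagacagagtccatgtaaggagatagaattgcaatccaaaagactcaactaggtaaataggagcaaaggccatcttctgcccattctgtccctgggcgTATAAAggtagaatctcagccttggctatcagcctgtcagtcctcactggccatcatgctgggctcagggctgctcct
Mup11: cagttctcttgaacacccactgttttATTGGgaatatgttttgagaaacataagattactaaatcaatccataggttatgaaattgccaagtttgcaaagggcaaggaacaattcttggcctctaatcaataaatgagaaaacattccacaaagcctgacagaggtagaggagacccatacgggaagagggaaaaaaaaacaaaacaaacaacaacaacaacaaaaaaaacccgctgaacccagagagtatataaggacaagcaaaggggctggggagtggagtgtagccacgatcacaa

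Motifs were searched on both strands in these windows, each on its own, and matches of different motifs may overlap. The STAT5 motif TTCNNNGAA was in 9.84% of 427 windows of genes called higher, in 4.22% of 521 windows of genes called lower and in 8.30% of all 32851 windows. TATAAA was in 12.2%, 8.83% and 13.6% of these windows, CACGTG in 8.899%, 9.02% and 7.15%, CCAAT in 38.2%, 37.2% and 37.4%, and the D-box TTATGTAA in 0.468%, 0.768% and 0.938%. None of these motifs was in the windows of C6, Mup3, Cyp2b9 or Cyp2b13. These are matches of letters in one window per annotated start, with no binding measured.

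The summed levels of both sex-biased lists separated almost every nucleus of the 2 pools by age. The lists were chosen with earlier results of these data known, and nuclei of a pool are not replicates. The separation therefore describes these nuclei and supports nothing by itself. The male-biased sum exceeded the female-biased sum in 340 of 340 P60 nuclei and in 2 P18 nuclei. The male-biased sum ran from 3603 through a median of 14390 to 88880 CPM at P60, against 201.3 through a median of 1313 to 4845 CPM at P18. The female-biased sum ran from 0 through a median of 53.2 to 2905 CPM at P60, against 1011 through a median of 5190 to 14810 CPM at P18. In 4N nuclei the male-biased sum was the larger in every one at P60 and in 3 of 46 at P18.

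Over age, the mean female-biased sum in diploid nuclei was 1797 CPM at P0, 7178 at P9, 5689 at P18 and 191.2 at P60. The male-biased sum was 3504 CPM at P0, of which Serpina1e, an alpha-1-antitrypsin gene, made up 2868 CPM, then 773 at P9, 1505 at P18 and 15950 at P60. In whole cells the male-biased sum was 1329 CPM at P18, 3059 at P24, 3253 at P30 and 27060 at P60. The female-biased sum in whole cells was 6195, 4045, 3628 and 537 CPM at the same ages. Both readouts therefore passed through the crossing after P18, and in cells the larger step lay between P30 and P60. The P60 1x2N and 2x2N nuclei, at 23700 and 23240 CPM male-biased, also lay above P18, and their female-biased sums of 1045 and 1314 CPM held 755 and 875 CPM of the omega-hydroxylase gene Cyp4a10.

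**Figure D2:**
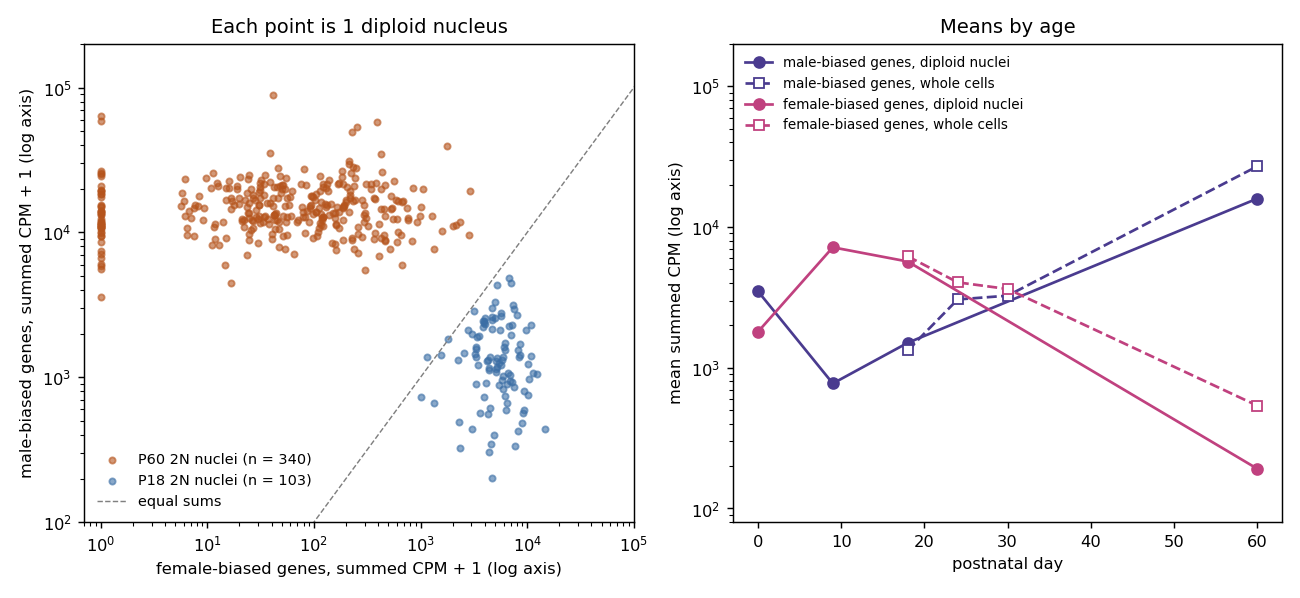
Left, summed CPM + 1 of 22 male-biased against 22 female-biased genes in each diploid nucleus, on log axes, with the line of equal sums; right, mean summed CPM by postnatal day in diploid nuclei (solid) and whole cells (dashed), on a log axis. All 340 P60 nuclei lie above the line, and all P18 nuclei but 2 lie below it.

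Genes of the growth hormone pathway did not move as one. Stat5b averaged 152.1 CPM at P60 and 410 CPM at P18, a log2 fold of -1.43, and Stat5a 21.6 and 96.1 CPM, a log2 fold of -2.10. In 4N nuclei the log2 folds were -0.31 for Stat5b, which is under 2-fold, and -1.24 for Stat5a. The receptor gene Ghr averaged 7403 CPM at P60 and 3778 CPM at P18, which is just under 2-fold. Igf1, the main hormone the liver secretes in response, averaged 1950 CPM at P60 and 882 CPM at P18, but the spike-in sets disagreed: 851 CPM at P60 and 1547 CPM at P18 in nuclei without spike-in counts, and 2041 CPM at P60 and 476 CPM at P18 in those with them. The binding proteins Igfbp1 and Igfbp2 were lower, with log2 folds of -1.73 and -1.84. In nuclei without spike-in counts these folds were -3.50 for Igfbp1 and -0.72 for Igfbp2, and in nuclei with them -1.56 and -1.91. Of 13 measured members of 16, 3 were higher and 5 lower, beside 6.23% of all measured genes higher and 6.64% lower, and in both spike-in sets 1 was higher and 4 were lower. Among 57 measured transcription factors of 63, 5 were higher and 4 lower, which is near those shares of all genes.

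Of 18 measured fatty acid synthesis genes of 20 listed, 9 were higher at P60 and 1, the elongase gene Elovl5, was lower, beside 6.23% of all measured genes higher and 6.64% lower. In both spike-in sets, 6 were higher and 1 lower. Scd1 (chr19:44394455-44407879), which makes monounsaturated fatty acids, ran from 0 to 3621 CPM at P60 and from 0 to 443 CPM at P18, with a count in 92.9% of P60 nuclei and 32.04% of P18 nuclei, and its log2 fold was 4.31, with 8.22 in nuclei without and 3.55 in nuclei with spike-in counts. Elovl6, an elongase of saturated fatty acids, averaged 2019 CPM at P60 and 104.4 CPM at P18, with log2 folds of 2.13 in nuclei without and 4.03 in nuclei with spike-in counts. Fasn and Acly, which make palmitate and its acetyl-CoA, had log2 folds of 3.25 and 2.48, and Srebf1, a transcription factor of the pathway, 1.52. In the 1x2N nuclei at P60, Fasn, Acly and Srebf1 averaged 26.95, 62.02 and 19.8 CPM, below the P18 diploid means of 39.6, 92.5 and 72.2 CPM, and in the 2x2N nuclei Fasn and Srebf1 did too, at 27.8 and 37.3 CPM. Scd1 averaged 25.5 CPM in the 1x2N nuclei and 40.4 CPM in the 2x2N nuclei, against 19.4 CPM in P18 diploid nuclei. The 4N pools gave log2 folds of 1.75 for Fasn, 1.71 for Acly and 2.98 for Scd1.

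Of 21 measured cholesterol synthesis genes of 24 listed, 10 were higher at P60, 1 was lower and 10 were within 2-fold, beside 6.23% of all measured genes higher and 6.64% lower. In both spike-in sets, 6 were higher and 1 lower. Their summed level averaged 1869 CPM at P60 and 1736 CPM at P18, and it was 1042 CPM in the 1x2N and 1285 CPM in the 2x2N nuclei at P60. Fdps, which makes farnesyl diphosphate, averaged 110.6 CPM at P60 and 17.5 CPM at P18. Insig2, which holds back the pathway, was lower at 121.8 CPM at P60 and 646 CPM at P18.

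Of 28 measured fatty acid oxidation and ketogenesis genes of 34 listed, 12 were lower at P60, 16 were within 2-fold and none was higher, beside 6.23% of all measured genes higher and 6.64% lower. In both spike-in sets, 9 were lower. Pdk4, the kinase that blocks pyruvate entry, had counts in 3.53% of P60 nuclei and 38.8% of P18 nuclei, and its log2 fold was -5.52 in nuclei without and -3.65 in nuclei with spike-in counts. Bdh1, an enzyme of ketone production, averaged 72.5 CPM at P60 and 299.7 CPM at P18, and Ppargc1a, a coactivator of oxidation and gluconeogenesis, 109.9 CPM at P60 and 339.2 CPM at P18. Cyp4a10 and Cyp4a14 are also on the female-biased list. The 1x2N and 2x2N nuclei at P60 departed from this for Cyp4a10, with 755 and 875 CPM against 579 CPM at P18.

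**Figure D3:**
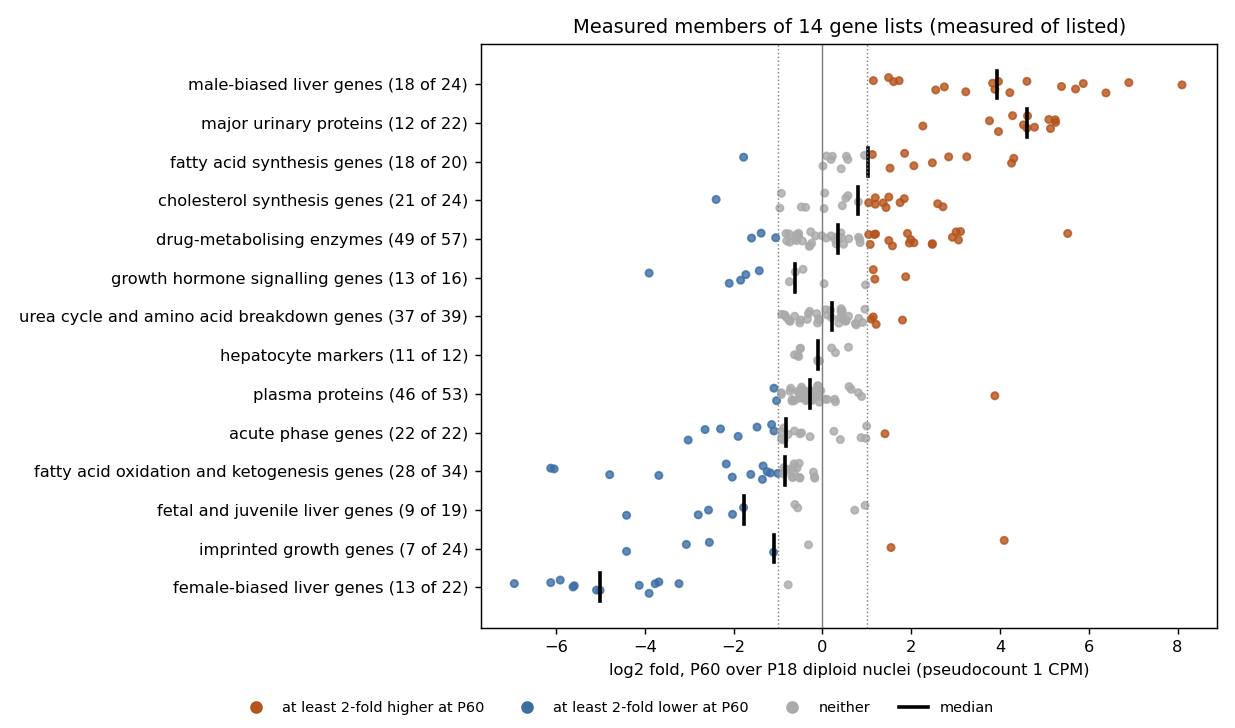
Log2 fold, P60 over P18, of each measured member of 14 gene lists in diploid nuclei, with measured and listed numbers beside each name; bars are medians and dotted lines mark 2-fold. The male-biased list has a median of 3.92 and the female-biased list one of -5.01. The 11 hepatocyte markers lie within 2-fold, as do most of all measured genes (6.23% higher, 6.64% lower).

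Of 49 measured enzymes of drug metabolism, 17 were higher at P60 and 3 lower, beside 6.23% of all measured genes higher and 6.64% lower. In both spike-in sets, 12 were higher and 1 lower. The carboxylesterase Ces3b averaged 1668 CPM at P60 and 35.2 CPM at P18, and the glucuronosyltransferases Ugt2b1 and Ugt2a3 had log2 folds of 3.06 and 2.93. Cyp3a11 was lower over all nuclei, at 205.7 CPM at P60 and 625 CPM at P18, but its log2 fold was 1.21 in nuclei without spike-in counts and -2.39 in nuclei with them. Among 23 bile acid genes, all measured, 4 were higher and 2 lower, of which 2 were higher and 1 was lower in both spike-in sets. Cyp7a1, the rate-limiting enzyme of bile acid synthesis, averaged 248.3 CPM at P60 and 211.6 CPM at P18, with log2 folds of -1.36 in nuclei without and 1.27 in nuclei with spike-in counts. The liver pyruvate kinase gene Pklr, of glycolysis, averaged 910 CPM at P60 and 91.2 CPM at P18. Of 21 measured genes of glucose metabolism, 2 were higher and 2 lower. Of 37 urea cycle and amino acid genes, 4 were higher and 33 were within 2-fold, and 1 was higher in both spike-in sets. With 6.23% of all measured genes higher and 6.64% lower, the counts of glucose and amino acid genes are not read as results about these lists.

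Of 30 measured pericentral genes of liver zonation, 6 were higher and 2 lower, and of 32 periportal genes, 7 were higher and 1 lower, beside 6.23% of all measured genes higher and 6.64% lower. In both spike-in sets, 5 pericentral and 4 periportal genes were higher and none of either list was lower. The pericentral glutamate transporter gene Slc1a2 had a log2 fold of 2.59 and the periportal Cyp2f2 one of 2.06, which was 3.38 in nuclei without and 1.85 in nuclei with spike-in counts. The median nucleus had 6101 CPM of measured pericentral genes at P60 and 10290 CPM at P18. This order came from nuclei with spike-in counts (5843 at P60, 8959 at P18) and was turned in those without (13250 and 11770).

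Of 19 fetal and juvenile liver genes listed, 9 were measured, of which 5 were lower at P60 and 4 within 2-fold, and 3 were lower in both spike-in sets. Of 24 imprinted growth genes listed, 7 were measured, of which 2 were higher and 4 lower, with 1 higher and 3 lower in both sets. These counts stand beside 6.23% of all measured genes higher and 6.64% lower. The summed level of the imprinted genes averaged 1545 CPM at P60 and 988.9 CPM at P18, of which Slc38a4 alone made up 1355 CPM and 464 CPM. The higher sum at P60 is therefore not a rise of the list as a whole. H19 (chr7:142575529-142578143), an imprinted noncoding RNA of the fetal liver, averaged 1688 CPM at P0, 972 at P9, 88.8 at P18 and 3.21 at P60 in diploid nuclei. It had counts in 73 of 340 P60 nuclei (21.5%) and in 48.5% of P18 nuclei, and its log2 fold was -4.42. The P18 share differed along the label numbers, and H19 was 0 CPM in all P18 nuclei numbered 79 to 99. The highest P60 nucleus had 210.9 CPM and the highest P18 nucleus 1971 CPM. The log2 fold of H19 was -1.67 in 4N nuclei. In whole cells it was -7.66, with 0.915 CPM at P60 and 386.1 CPM at P18. Grb10, an imprinted inhibitor of growth receptor signalling, averaged 21.4 CPM at P60 and 130.2 CPM at P18, with log2 folds of -5.22 in nuclei without and -2.55 in nuclei with spike-in counts. Peg3, a paternally expressed zinc finger gene, averaged 9.25 CPM at P60 and 85 CPM at P18. Slc38a4, an imprinted amino acid transporter gene, was higher, at 1355 and 464 CPM. Afp, the fetal counterpart of albumin, was within 2-fold at 11.4 CPM at P60 and 18.02 CPM at P18, with counts in 16.5% and 47.6% of nuclei. Other readouts of Afp were lower at P60, with 2.40 CPM in 1x2N and 0 CPM in 2x2N nuclei. In whole cells Afp averaged 6.74 CPM at P60 and 104.2 CPM at P18, a log2 fold of -3.765. The metallothioneins Mt1 and Mt2, which bind zinc and copper, had log2 folds of -2.57 and -2.80. The other diploid pools at P60 were within 2-fold of P18 for both genes. Mt1 averaged 837.3 CPM in 1x2N and 693.3 CPM in 2x2N nuclei, against 1102 CPM at P18. Mt2 averaged 405.3 and 468.2 CPM in these pools, against 619 CPM at P18. For Mt1 the fold was -3.83 in nuclei without and -2.03 in nuclei with spike-in counts.

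Imprinted Meg3 was called higher, at 39.4 CPM at P60 and 1.37 CPM at P18, although counts were found in 12.1% of P60 nuclei and 10.7% of P18 nuclei, and it was at 0 CPM in both 1x2N and 2x2N nuclei. Its log2 fold was 0.51 in nuclei without and 3.87 in nuclei with spike-in counts. Of 22 acute phase genes, all measured, 1 was higher and 7 lower, beside 6.23% of all measured genes higher and 6.64% lower, but only 1 of these 7 was lower in both spike-in sets. The haptoglobin gene Hp showed this split, with log2 folds of 0.76 without and -1.40 with spike-in counts. Rgs5, a pericyte and stellate cell gene, and S100a8, a neutrophil gene, were lower mainly in nuclei with spike-in counts, with log2 folds of -4.33 and -4.41 in all nuclei, and -0.74 and -0.19 in nuclei without spike-in counts. The summed level of 13 stellate cell and fibroblast markers averaged 37.74 CPM at P60 and 107.9 CPM at P18, and that of 11 lymphocyte and neutrophil markers 0.785 CPM at P60 and 39.31 CPM at P18. Their part in these folds was not tested.

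Several of the highest folds were of genes that whole cells hardly showed. Scara5, a ferritin receptor gene, averaged 204.2 CPM in P60 nuclei and 0.107 CPM in P18 nuclei, where it had 1 count, and 0.202 CPM in P60 cells and 1.14 CPM in P18 cells. The ratio of its pooled CPM was 3062, with an exact binomial counting interval of 549.5 to 121000. Its log2 fold was 4.10 in nuclei without and 7.78 in nuclei with spike-in counts. The zinc finger gene Zbtb7c averaged 142.1 and 0.105 CPM in P60 and P18 nuclei and 0.148 and 0.0777 CPM in P60 and P18 cells. Its P18 value rests on 3 counts, and the ratio was 745, with an interval of 254.7 to 3612. Its log2 fold was 4.40 in nuclei without and 7.21 in nuclei with spike-in counts. The muscarinic receptor gene Chrm3 averaged 68.4 and 0.326 CPM in P60 and P18 nuclei. Both Scara5 and Zbtb7c were higher still in 1x2N nuclei, at 415 and 333.8 CPM.

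In whole cells, 5.45% of 6216 measured genes were higher and 3.43% lower at P60. Of the 501 genes higher in nuclei, those also measured in cells were higher there in 46.6% (exact interval 40.7 to 52.5%). Of the 534 genes lower in nuclei, those measured in cells were lower there in 28.1% (23.1 to 33.6%). Both intervals treat genes as independent draws and do not cover the spread between animals. Among all 5310 genes measured in both, 5.16% were higher and 3.03% lower in cells. Only 4 of the higher and 5 of the lower genes went past 2-fold the other way.

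In cells, 15 of 16 measured male-biased genes were higher and none lower, and of 15 measured female-biased genes 12 were lower and 1 higher, beside 5.45% of all genes measured in cells higher and 3.43% lower. The members measured in cells and in nuclei are not all the same. Mup3 averaged 10580 CPM in P60 cells and 59.4 CPM in P18 cells, a log2 fold of 7.45 against 3.97 in nuclei. Sult2a1 averaged 0.946 CPM in P60 cells and 3023 CPM in P18 cells, a log2 fold of -10.60 against -5.59 in nuclei. For C6 the nuclei had the higher level at P60, 1049 CPM against 81.6 CPM in cells, and the larger log2 fold, 8.10 against 5.05. Cyp7b1 likewise averaged 2530 CPM in P60 nuclei and 95.05 CPM in P60 cells. Of 24 cholesterol synthesis genes, all measured in cells, 21 were higher there and 1 lower, and the difference from the count in nuclei was not tested. Nuclei and cells were counted in separate tables, so levels are set side by side and folds are the safer reading.

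**Figure D4:**
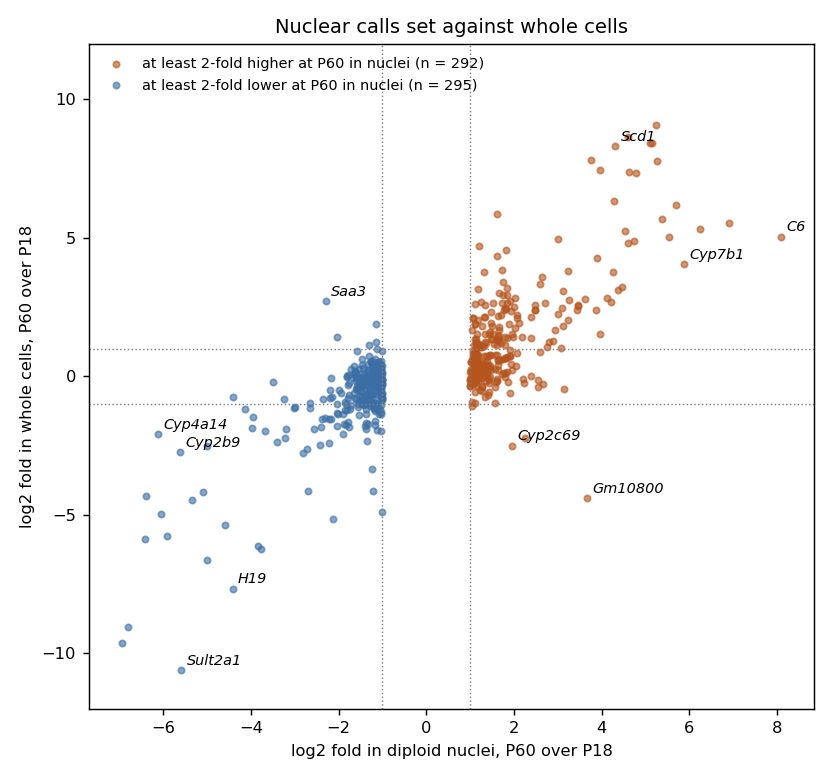
Log2 fold, P60 over P18, in diploid nuclei (x axis) and whole cells (y axis) for the nuclear calls that were also measured in cells; dotted lines mark 2-fold. Of the higher calls 46.6% and of the lower calls 28.1% lie past 2-fold the same way in cells, and 9 genes lie past 2-fold the other way, among them Gm10800, Saa3 and Cyp2c69.

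The spike-in sets differed in how many named genes kept their call. Of the named genes called 2-fold in all nuclei, 11 were under 2-fold in nuclei with spike-in counts and none changed sign; in nuclei without them, 87 stayed past 2-fold, 21 were under 2-fold and 14 changed sign. Over genes measured in both sets, 23.4% of the 1082 genes higher without spike-in counts were also higher with them, and 15.1% of the 1412 lower genes were also lower, against 8.46% and 6.97% of all 7401 genes. The 26 P60 nuclei without spike-in counts carried higher sums of plasma protein genes (105600 CPM against 41490 CPM in P60 nuclei with them) and of ribosomal protein genes (11770 against 3650 CPM). Their part in the folds was not tested.

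**Figure D5:**
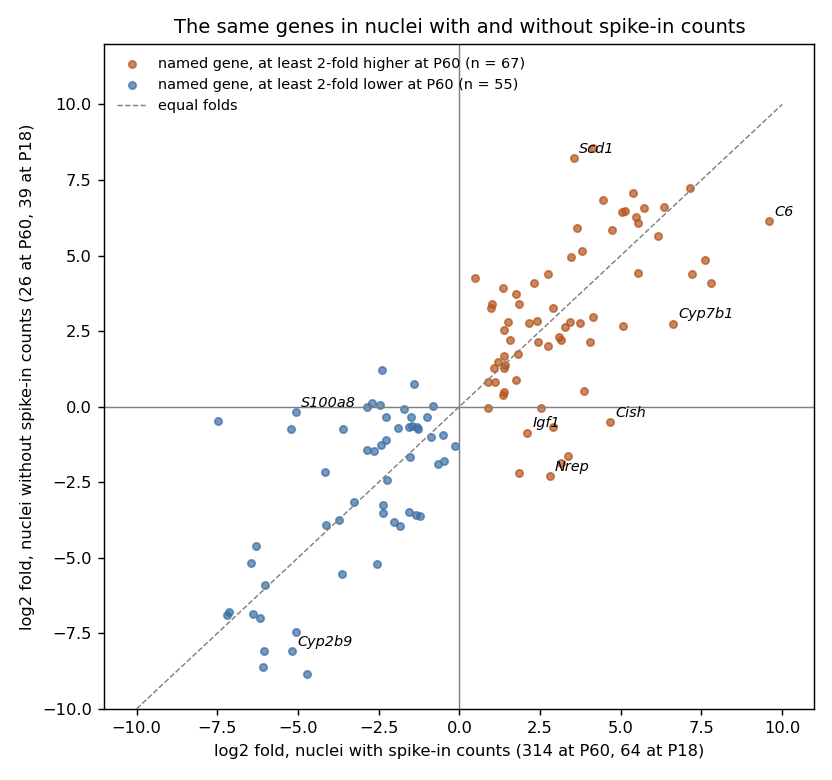
Log2 fold, P60 over P18, of the named genes called 2-fold, in nuclei with spike-in counts (x axis) and without (y axis), with the line of equal folds. C6, Cyp7b1, Scd1 and Cyp2b9 keep their direction in both sets, while Igf1, Cish and Nrep change sign and S100a8 lies near 0 without spike-in counts.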

How the data were processed

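Single nuclei and single whole hepatocytes were profiled by mSTRT-seq, per the labels' protocols. The deposited tables hold raw counts per gene and spike-in, per the file headers; whether a count is a read or a molecule is not given in the sources used here. The submitters' processing notes name builds GRCm38 and mm10 and, among other tools without roles, TopHat2 2.1.0, featureCounts 1.5.3 and UMI-tools 0.5.0. CPM was computed per nucleus or cell without the 92 spike-in entries and averaged over the pool, with a pseudocount of 1 CPM for folds. Measured genes had a mean of 10 CPM and 10% of nuclei over both pools. Intervals are exact at 95%. Those on shares of nuclei treat nuclei as independent, and those on shares of genes treat genes as independent. Those on ratios of pooled CPM treat each count as independent and cover counting error only, and whether a count is independent is not known, since it may be a read. For shares at equal depth, nuclei were thinned to 26000 counts, which kept 313 of 340 at P60 and 85 at P18. No columns held identical values.

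Each group was taken from the sample titles. All used cells and nuclei carry no animal label, so no test was run; edgeR 4.0.16 and DESeq2 1.42.0 gave scaling factors only. Procedures were tested on simulated data. Of 174 unsorted P60 cells, 58 were used, taken at a step of 3 in label number to limit computation and without regard to their values; the other P60 cells were not analysed here, so P60 cell means are less precise than the deposited table allows. In all, 1632 columns of both tables were not used. Gene symbols joined the tables; 25 symbols altered by date formatting had no match. Genes were placed by GENCODE M21. No doublet caller was run on the sorted nuclei.

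Genes were named by rule: the markers Mup3, H19, Alb and Afp; the 10 highest and 10 lowest folds whose share at fixed depth moved the same way, without predicted genes; up to 6 called members per list; 5 genes opposite in cells; Y-linked genes, Xist, Malat1 and Neat1. Cyp7a1, Ghr, Rtn4, Selenbp2, Elovl5, Ppargc1a, C8a, C8b, Mup2, Mup20, Nudt7 and Orm2 were added as list members after their values were seen. Members and lists were chosen with earlier results of these data known. Analyses used Python 3.11.15, NumPy 2.4.6, pandas 2.3.3, SciPy 1.17.1 and R 4.3.3. Some genes that the rule names are not reported here.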

Additional observations from a re-analysis of the deposited data

Results flagged for a closer look

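Of the called genes, 9 passed 2-fold in opposite directions in diploid nuclei and in whole cells, and were chosen for that after their values were seen; the difference was not tested, since each group is 1 pool. The predicted gene Gm10800 had a log2 fold of 3.66 in nuclei and -4.40 in cells, with 53.3 and 3.31 CPM in P60 and P18 nuclei and 1.65 and 55.1 CPM in P60 and P18 cells. Its direction in nuclei was the same in 4N nuclei, at 4.55. Nrep, a neuronal regeneration related protein gene, had 2.25 in nuclei and -2.22 in cells, but -2.31 in nuclei without spike-in counts. Cyp2c69, a member of a near-identical cytochrome P450 family, had 1.96 in nuclei and -2.50 in cells, and it was at -1.17 in 4N nuclei and -1.86 in nuclei without spike-in counts. The heat shock gene Hsph1 had 1.04 in nuclei and -1.06 in cells, but -1.835 in nuclei without spike-in counts. It was at 0.84 in nuclei with spike-in counts and 0.59 in 4N nuclei.

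The other 5 were lower in nuclei and higher in cells. The acute phase gene Saa3 had -2.30 in nuclei and 2.71 in cells, and Orm2, another acute phase gene, -1.15 and 1.89. The secreted trefoil peptide gene Tff3 had -2.03 and 1.43, the histone methyltransferase-like gene Setdb2 -1.15 and 1.23, and the G-protein regulator gene Rgs16 -1.31 and 1.13. Saa3, Tff3, Setdb2 and Orm2 did not reach 2-fold lower in nuclei without spike-in counts, where their log2 folds were 0, 0.05, -0.34 and 6.03. With cells labelled 2N at P60 in place of the unsorted cells, the log2 fold in cells was -0.60 for Gm10800, -0.07 for Tff3, 0.41 for Setdb2, -2.48 for Rgs16 and 0.79 for Hsph1, so these 5 were no longer opposite past 2-fold.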

How the results depend on the processing

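No paired analysis was possible because each group is 1 pool, with no label that ties nuclei to an animal. The alternatives by spike-in set and by the nearest P60 pool were chosen after seeing the data. Genes at least 2-fold higher and lower in diploid nuclei were 6.23% and 6.64% of the genes measured, and each value that follows is a percent of the genes measured under that setting. With no filter on low values they were 9.64% (1683 genes) and 8.07% (1408 genes), and with a stricter filter (50 CPM and 25% of nuclei) 5.07% and 5.56%, so the number of genes moved far more than their share. With a pseudocount of 10 CPM they were 3.63% and 3.85%. They were 10.2% and 15.2% with the P60 1x2N nuclei, and the lower share was 14.7% with the P60 2x2N nuclei. They were 17.6% and 19.1% in nuclei without spike-in counts, 3.21% and 2.92% past 2-fold in both spike-in sets, and 2.97% and 4.08% at the level nearest to P18 among the diploid P60 pools. In whole cells the shares of 5.45% higher and 3.43% lower became 3.83% and 3.95% without a filter, 6.65% and 3.997% with the stricter filter and 8.897% and 5.17% with P60 2N cells, and the lower share became 2.20% with a pseudocount of 10 CPM. The share of nuclear calls past 2-fold the same way in cells, 37.3%, became 33.01% on summed counts, 50.3% with the stricter filter, 41.99% with a pseudocount of 10 CPM, 15.1% and 16.2% with 1x2N and 2x2N nuclei, and 15.3% and 28.8% in nuclei without and with spike-in counts.

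Named genes that changed sign, as log2 folds, were these, and the cause was not tested. With 1x2N nuclei they were Meg3 (-1.24), Aldh1a1 (-0.69), Fasn (-0.54), Pnpla3 (-0.9999), Acly (-0.57), Cyp4a10 (0.38), Cth (-0.35), Saa3 (0.94), Srebf1 (-1.815) and Cyp2c69 (-0.26). With 2x2N nuclei they were Meg3 (-1.24), Aldh1a1 (-0.44), Fasn (-0.50), Pnpla3 (-1.47), Cyp4a10 (0.595), Cth (-0.24), Orm3 (-0.42) and Srebf1 (-0.94). In 4N nuclei they were Tff3 (2.11), Tmsb10 (2.60), Igfbp2 (0.65), Serpina6 (0.038), Rpl15 (-0.17), Rgs5 (0.10), Hba-a2 (2.22), S100a8 (1.34) and Cyp2c69 (-1.17). In nuclei without spike-in counts they were Tff3 (0.051), Cish (-0.51), Scp2 (-0.035), Cyp3a11 (1.21), Igf1 (-0.86), Pnpla3 (-1.65), Got1 (-0.043), Hp (0.76), Orm3 (-2.21), Atf5 (0.11), Pvt1 (-0.67), Hba-a2 (0.031), Nrep (-2.31) and Cyp2c69 (-1.86). With shallow nuclei left out Tmsb10 was at 0.51. No called named gene changed sign under summed counts, TMM, size factors, a pseudocount of 10 CPM, trimming of the highest 5% of nuclei or restriction to nuclei with spike-in counts. Depth limits genes detected in few nuclei, and with 1 pool per age the spread between animals is unknown.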

Other observations

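Some of the most abundant nuclear changes lay outside the lists and were picked after their values were seen. Egfr, the epidermal growth factor receptor gene, averaged 8151 CPM at P60 and 1022 CPM at P18, a log2 fold of 3.00, with 358 CPM in P60 cells and 74.5 CPM in P18 cells. Within the spike-in sets its log2 fold was -0.14 without and 3.23 with spike-in counts. Alas1, the first enzyme of heme synthesis, averaged 3245 CPM at P60 and 846 CPM at P18, with a log2 fold of 1.69 in nuclei with spike-in counts. Its fold in nuclei without spike-in counts is not given here, so the rise is not shown for both sets. Nudt7, a peroxisomal coenzyme A hydrolase gene of the male-biased list, averaged 2348 CPM at P60 and 124.9 CPM at P18. The transporter gene Slc22a30 averaged 1974 CPM at P60 and 317.3 CPM at P18. Among genes lower at P60, the zinc finger gene Zbtb16 averaged 982 CPM at P60 and 2192 CPM at P18, with log2 folds of -2.34 and -1.42 in nuclei without and with spike-in counts. Cdo1, which oxidises cysteine, averaged 575 and 1568 CPM, and its log2 folds in the sets were -1.47 and -1.55.

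Nuclear long noncoding RNAs were abundant at both ages. Malat1 averaged 32510 CPM at P60 and 27440 CPM at P18, and Neat1 4151 and 2226 CPM, both within 2-fold. Of the clock genes, Arntl averaged 16.0 CPM at P60 and 93.1 CPM at P18 and Per2 193.3 and 88.2 CPM; the hour of collection is not in the labels. No cell cycle gene among the 5 measured of 37 differed 2-fold, and of 23 measured unfolded protein response genes 1 was higher and none lower. With 6.23% of all measured genes higher and 6.64% lower, these counts are not read as results about the lists. In whole cells, 6 of 9 measured cell cycle genes were lower and none higher, beside 3.43% of all genes measured in cells lower and 5.45% higher.

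Within a pool, the summed levels of measured pericentral and periportal genes were negatively related over nuclei, with a Spearman rho of -0.63 over 340 P60 nuclei and -0.47 over the P18 nuclei. In nuclei without spike-in counts rho was -0.54 at P60 and -0.58 at P18. In nuclei with them it was -0.70 at P60 and -0.35 at P18, so the order of the ages differed between the sets. The 2 sums share the total they are divided by.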
